A study of Patiria miniata with 16 samples.

Results

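The genes described here encode the Wnt pathway of the bat sea star Patiria miniata: the secreted Wnt ligands, the proteins that modify and export them, their frizzled receptors, their secreted antagonists, and the intracellular proteins that carry the signal to beta-catenin. They were followed in whole embryos raised with or without BAPN (beta-aminopropionitrile), which inhibits the lysyl oxidases that cross-link collagen. Members were chosen by name alone: a gene was a member if its product name contained protein Wnt, frizzled, dishevelled, axin-, catenin beta, dickkopf, wntless, porcupine or adenomatous polyposis coli. The rule took 61 of 27818 genes. Of these, 27 matched only because syntaxin, ataxin, metaxin, draxin or aprataxin contains the letters of axin, and they were counted apart. The remaining 34 carry names of Wnt pathway products and are called Wnt members below: 13 ligands, 3 genes of ligand production, 5 receptors, 6 secreted antagonists or frizzled-related genes, 1 dishevelled, 5 genes of the beta-catenin destruction complex and 1 beta-catenin. A filter on low counts kept 31 of the 34. It removed Wnt-9a-like (LOC119721270), Wnt-9b-like (LOC119721571) and membrane frizzled-related protein-like (LOC119740241), whose counts over all 16 libraries summed to 26, 5 and 18.

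The series holds 16 polyA libraries from pools of at least 200 wild-type embryos, in 8 groups of 2. The 5 treated groups had BAPN from hatched blastula to day 2, from mid gastrula to day 3, from hatched blastula to day 4, from mid gastrula to day 4, or from hatched blastula to day 2 and then none until day 4 (recovery). Each treated group has 1 library at 1.2 mM and 1 at 0.8 mM BAPN, so its spread contains any difference between doses. Untreated controls were collected on day 2, day 3 and day 4, 2 libraries each, and each is named in the labels as the control of 1 treated library. The gastrula-to-day-4 and recovery groups have no control named for them and were set against the day 4 controls, which the blastula-to-day-4 group shares. Levels are given as CPM, read counts per library size after TMM scaling, a normalization for library composition. Nothing in the labels tells whether libraries of 1 group were grown apart, and p-values therefore cover the spread among the libraries at hand, which may be technical. Below, a pair of values from a treated group gives the 1.2 mM library and then the 0.8 mM library, and a pair from a control group gives replicate 1 and then replicate 2. Replicate 1 is the 1.2 mM library in each group collected in BAPN, but the 0.8 mM library in recovery.

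Wnt proteins are lipid-modified by porcupine, carried to the cell surface by wntless and bound by frizzled receptors with LRP5 or LRP6 co-receptors. Dishevelled then inhibits a destruction complex built on axin and APC, beta-catenin accumulates, and with TCF factors it switches on target genes. Secreted frizzled-related proteins and most dickkopf proteins act outside the cell and limit the signal. In sea star and sea urchin embryos, beta-catenin in vegetal nuclei specifies endoderm and mesoderm, and Wnt signals from the posterior pattern the main body axis. Most product names here end in "-like", meaning that the annotation transferred them by similarity; that ending is left out in the running text.

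Total counts per library ran from 9945801 to 14383817, and TMM scaling factors ranged between 0.874 and 0.987 for the 8 libraries with BAPN at collection, against 1.067 and 1.121 for recovery and 0.994 to 1.143 in the 6 controls. Named lists of other tissues were followed in the same libraries. Over all 17519 genes tested, 28.1% were higher and 30.1% lower in the mean BAPN effect, which is defined below. Of 6 muscle genes tested, 5 were lower in the mean BAPN effect and none higher, and their summed level was 626 to 1003 CPM in libraries collected in BAPN, 2263 to 2313 in recovery and 1717 to 3304 in controls. Of 25 cilia genes, 23 were lower and 1 higher (1791 to 3755, 5036 to 5135 and 3958 to 5948 CPM in the same order). Of 12 cell cycle genes tested, 12 were lower (215 to 640.4, 1636 to 1726 and 1054 to 1646 CPM). Of 22 neuron genes tested, 3 were higher and 11 lower (725 to 1077, 1198 to 1242 and 1116 to 1412 CPM). Of 29 gut genes tested, 12 were higher and 9 lower (9116 to 20957, 5059 to 6658 and 3815 to 15239 CPM). Gut levels differed by day, with 3815 to 3823 CPM in day 2, 4306 to 4316 in day 3 and 15000 to 15239 in day 4 controls. Under BAPN they were 10866 to 11604 on day 2 and 9116 to 10719 on day 3. On day 4 they were 20861 to 20957 after blastula start and 12679 to 14184 after gastrula start. Day 4 controls alone had 3041 to 3304 CPM for muscle, 5701 to 5948 for cilia, 1054 to 1077 for cell cycle and 1361 to 1412 for neurons. In a single group, at most 2 of 6 muscle, 3 of 23 neuron, 1 of 13 cell cycle and 11 of 33 gut genes were at 0, and no cilia gene was. In whole embryos, fewer cells of a type and less RNA per cell cannot be told apart, and the part of these lists in the results below was not tested.

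Under BAPN the Wnt members split into a larger group that was higher and a smaller one that was lower, and both groups contain ligands. In the mean BAPN effect, the average log2 change over the 3 windows with controls of their own day, 15 of 31 Wnt members were higher and 6 lower in edgeR's quasi-likelihood test at a Benjamini-Hochberg adjusted p under 0.05. Over all 17519 genes tested, 28.1% were higher and 30.1% lower. The median log2 change was 0.56 over the 31 Wnt members and -0.07 over all genes. The ligands went both ways, with 6 of 11 higher and 4 lower. Of the 20 other members, 9 were higher and 2 lower: 2 of 5 receptors were higher, 3 of 5 antagonists higher and 2 lower, and wntless, dishevelled, beta-catenin and 1 of 5 destruction complex genes higher. Among the antagonists called higher, LOC119743206 and LOC119746543 had only 63 and 72 counts over all libraries, and each call was lost without some single library. LOC119745558, an antagonist called lower in the mean, was called higher on day 2.

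Each window gave the same kind of split. From blastula to day 2, 11 Wnt members were higher and 5 lower (median 0.40), where 21.8% of all genes were higher and 19.7% lower. From gastrula to day 3, 12 were higher and 5 lower (median 0.59), against 17.1% and 15.1% of all genes. From blastula to day 4, 14 were higher and 8 lower (median 0.42), against 24.4% and 27.3% of all genes. From gastrula to day 4, 12 were higher and 8 lower (median 0.45), against 21.9% and 24.2% of all genes. The 3 windows with separate controls can be set side by side: 9 Wnt members were higher in each of them and 4 were lower in each, while 11.7% of all genes were higher in each and 8.73% lower in each. The 9 were Wnt-8b, Wnt-16, Wnt-1, Wnt-11b-2, wntless, secreted frizzled-related protein 5, dishevelled DVL-3, APC (LOC119746142) and beta-catenin. The 4 were the ligands Wnt-5b, Wnt-6, Wnt-7b and Wnt-7c. Scaling by total counts in place of TMM moved the median log2 change of all genes in the mean BAPN effect to -0.29. With that scaling 14 Wnt members were higher and 8 lower, where 3830 of all 17519 genes were higher and 6656 lower.

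**Figure D1:**
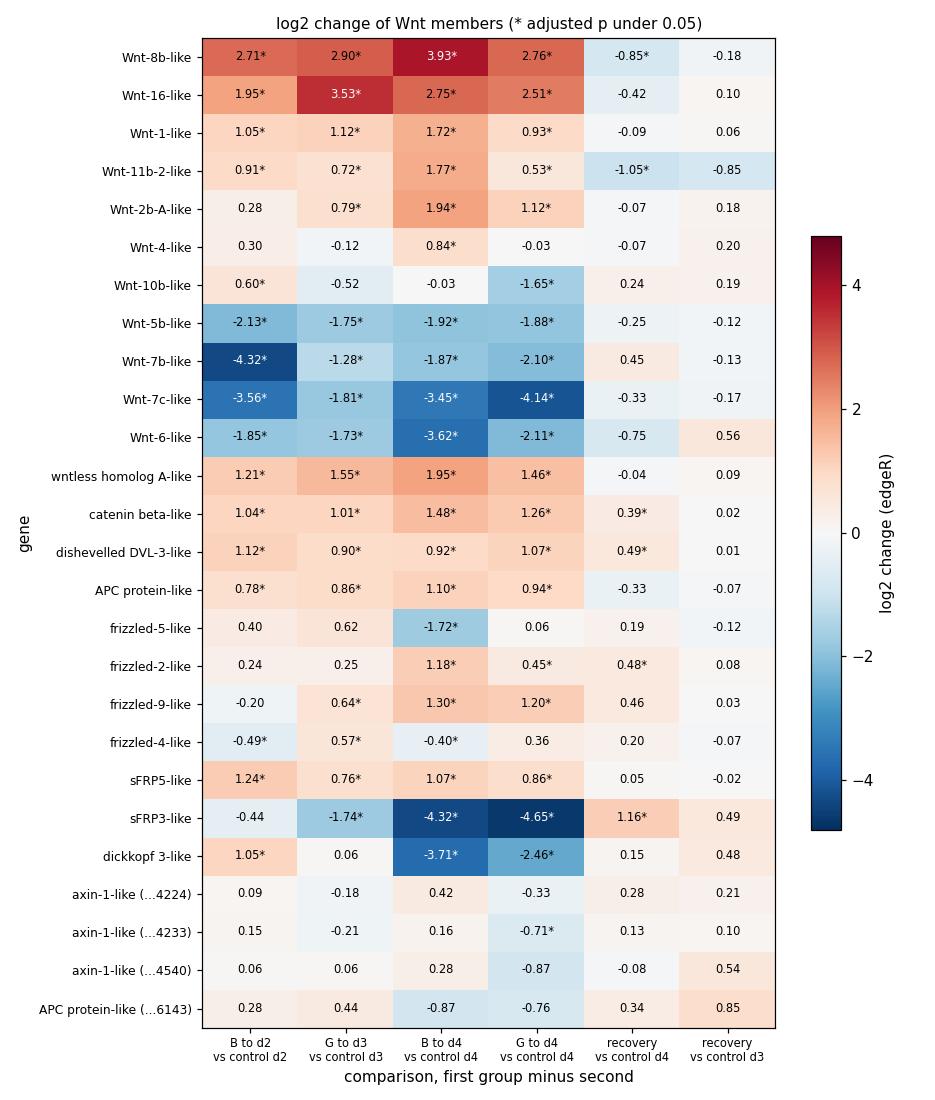
The log2 change (first group minus second) of 26 Wnt members is shown as colour and number, with genes down the page and 6 comparisons across; a star marks an adjusted p under 0.05. The 4 BAPN columns are red for Wnt-8b, Wnt-16 and beta-catenin and blue for Wnt-5b, Wnt-6, Wnt-7b and Wnt-7c, whereas the column of recovery against day 3 controls holds no star.

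Wnt-8b (LOC119730682) had the largest mean increase of the 11 ligands. Genes of the Wnt8 class act early from the vegetal side in sea urchin embryos. Wnt-8b stood at 780.2 and 659 CPM in blastula-to-day-2 embryos, against 86.5 and 133 CPM in day 2 controls. In gastrula-to-day-3 embryos it stood at 372 and 296 CPM, against 42.8 and 46.8 CPM in day 3 controls. On day 4 it stood at 1277 and 897 CPM after blastula start and 577 and 389 CPM after gastrula start, against 66.6 and 76.3 CPM in day 4 controls. No library collected in BAPN overlapped any control library. The log2 change, treated minus control, was 2.71 ± 0.23 (± SE, here and below) on day 2, 2.90 ± 0.24 on day 3, 3.93 ± 0.25 on day 4 after blastula start and 2.76 ± 0.23 after gastrula start, and its mean over the first 3 was 3.18 ± 0.14 (adjusted p = 1.1e-11), a 9.06-fold difference.

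Wnt-16 (LOC119726703) followed Wnt-8b in size and peaked in another window. It stood at 154 and 179 CPM in blastula-to-day-2 embryos, against 35.4 and 51.0 CPM in day 2 controls. Gastrula-to-day-3 embryos had 203 and 204 CPM, against 18.2 and 17.0 CPM in day 3 controls. The day 4 libraries held 160.4 and 179 CPM after blastula start and 147 and 139.9 CPM after gastrula start, against 23.1 and 27.2 CPM in day 4 controls. Its libraries collected in BAPN all stood above all control libraries. Its log2 change was largest on day 3 at 3.53 ± 0.18, with 1.95 ± 0.16 on day 2, 2.75 ± 0.17 on day 4 after blastula start and 2.51 ± 0.17 after gastrula start (mean 2.74 ± 0.10, adjusted p = 5.6e-16).

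The ligands Wnt-1, Wnt-11b-2 and Wnt-2b-A rose by less. Wnt-1 (LOC119721263), which is expressed at the posterior end of many animal embryos, stood at 55.9 and 53.9 CPM in blastula-to-day-2 embryos against 19.8 and 33.4 CPM in day 2 controls, and at 62.2 and 49.7 CPM in blastula-to-day-4 embryos against 19.2 and 14.7 CPM in day 4 controls. The log2 change came to 1.05 ± 0.22 and 1.72 ± 0.22 in those windows, 1.12 ± 0.22 from gastrula to day 3 and 0.93 ± 0.22 from gastrula to day 4. Wnt-11b-2 (LOC119724240) belongs to the class of ligands best known for acting without beta-catenin, on cell polarity and movement. It stood at 137 and 128 CPM in blastula-to-day-4 embryos and 62.3 and 50.1 CPM in gastrula-to-day-4 embryos, against 42.8 and 35.1 CPM in day 4 controls. Its log2 change was 1.77 ± 0.20 after blastula start and 0.53 ± 0.20 after gastrula start on day 4, 0.91 ± 0.20 on day 2 and 0.72 ± 0.19 on day 3. The day 3 call was lost without gastrula-to-day-3 replicate 1 (log2 change 0.33) and without day 3 control replicate 1 (0.56), and the gastrula-to-day-4 call without gastrula-to-day-4 replicate 1 (0.36) and without day 4 control replicate 2 (0.39). With total counts only, both calls were lost (0.50 on day 3 and 0.43 from gastrula to day 4), and the gastrula-to-day-4 call was lost with DESeq2 scaling in edgeR (0.47) and with DESeq2 (0.47).

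Wnt-2b-A (LOC119726472) differed by window. It stood at 42.5 and 34.6 CPM in blastula-to-day-2 embryos and 27.6 and 36.2 CPM in day 2 controls, which overlap. Levels on day 4 were 118 and 91.4 CPM after blastula start and 61.8 and 57.2 CPM after gastrula start, against 29.5 and 25.1 CPM in day 4 controls. The log2 change came to 0.28 ± 0.19 on day 2 (adjusted p = 0.27), 0.79 ± 0.19 on day 3, 1.94 ± 0.19 on day 4 after blastula start and 1.12 ± 0.19 after gastrula start. The day 3 call was lost without gastrula-to-day-3 replicate 1 (0.59).

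Wnt-4 and Wnt-10b differed between blastula start and gastrula start on day 4. Wnt-4 (LOC119732367) stood at 75.7 and 66.8 CPM in blastula-to-day-4 embryos and 40.1 and 38.1 CPM in gastrula-to-day-4 embryos, against 37.4 and 42.3 CPM in day 4 controls, with log2 changes of 0.84 ± 0.20 and -0.03 ± 0.20. Its mean effect of 0.34 ± 0.12 passed the test (adjusted p = 0.016), but not without blastula-to-day-2 replicate 1 (0.26), day 2 control replicate 2 (0.27), gastrula-to-day-3 replicate 1 (0.29) or day 3 control replicate 1 (0.28), nor with total counts only (0.12) or as a mean of 4 windows (0.25). Wnt-10b (LOC119721985) stood at 18.6 and 26.8 CPM in blastula-to-day-4 embryos and 6.08 and 8.66 CPM in gastrula-to-day-4 embryos, against 25.8 and 20.6 CPM in day 4 controls. It fell in the gastrula-start group (log2 change -1.65 ± 0.24) and not detectably in the blastula-start group (-0.03 ± 0.22). On day 2 it stood at 48.7 and 47.2 CPM in blastula-to-day-2 embryos against 29.5 and 33.7 CPM in day 2 controls (0.60 ± 0.22), a call lost without blastula-to-day-2 replicate 1 (0.58), blastula-to-day-2 replicate 2 (0.58) or day 2 control replicate 1 (0.51), and with total counts only (0.35).

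**Figure D2:**
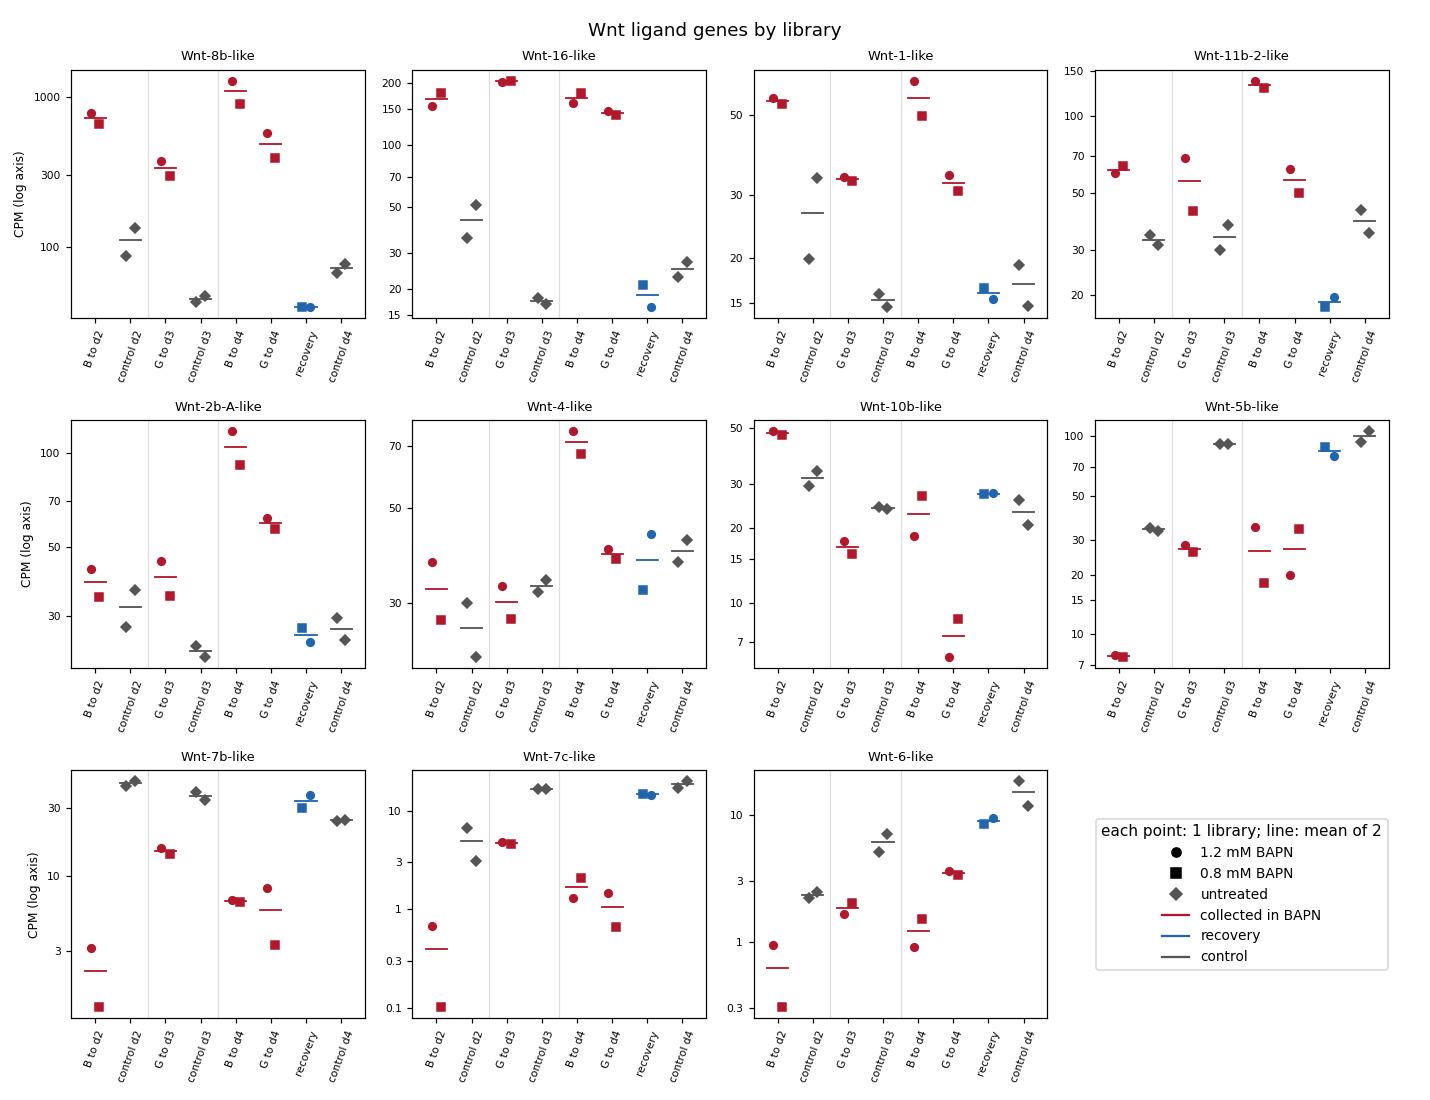
CPM on a log axis of the 11 ligand genes that passed the filter, by group (B, start at hatched blastula; G, start at mid gastrula; d, day), 1 point per library and a line at the mean of 2. Wnt-8b and Wnt-16 are higher in each library collected in BAPN than in any control. Wnt-5b, Wnt-7b and Wnt-7c are lower in each window than in the controls of the same day. Most recovery points lie near the day 3 and day 4 controls. Those of Wnt-11b-2 lie furthest below both, those of Wnt-8b, Wnt-5b and Wnt-7c also lie below both, and those of Wnt-10b lie above both.

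The ligands Wnt-5b, Wnt-7b, Wnt-7c and Wnt-6 fell. Wnt-5b (LOC119726771), of a class that signals mostly without beta-catenin, stood at 7.84 and 7.69 CPM in blastula-to-day-2 embryos, against 34.5 and 33.4 CPM in day 2 controls. The gastrula-to-day-3 libraries held 28.3 and 25.9 CPM, against 91.4 and 91.5 CPM in day 3 controls. On day 4 it stood at 34.7 and 18.2 CPM after blastula start and 20.0 and 34.1 CPM after gastrula start, against 93.5 and 106 CPM in day 4 controls. Each treated library was below each control of its own day, and the log2 changes lay close together: -2.13 ± 0.27 on day 2, -1.75 ± 0.24 on day 3, -1.92 ± 0.24 on day 4 after blastula start and -1.88 ± 0.24 after gastrula start.

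Wnt-7b (LOC119738535) fell furthest on day 2. It stood at 3.15 and 1.21 CPM in blastula-to-day-2 embryos, against 43.0 and 46.2 CPM in day 2 controls. In gastrula-to-day-3 embryos it stood at 15.8 and 14.3 CPM, against 39.2 and 34.0 CPM in day 3 controls. The day 4 libraries held 6.86 and 6.58 CPM after blastula start and 8.26 and 3.33 CPM after gastrula start, against 24.5 and 24.8 CPM in day 4 controls. No library collected in BAPN overlapped a control. The log2 change was -4.32 ± 0.37 on day 2, -1.28 ± 0.30 on day 3, -1.87 ± 0.32 on day 4 after blastula start and -2.10 ± 0.33 after gastrula start. Without blastula-to-day-2 replicate 1 the day 2 value was -5.19, and without gastrula-to-day-4 replicate 1 the gastrula-to-day-4 value was -2.88.

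Wnt-7c (LOC119744251) carries the name of a near relative of Wnt-7b and lies on another scaffold. It stood at 0.682 and 0.101 CPM in blastula-to-day-2 embryos, against 6.75 and 3.11 CPM in day 2 controls. Levels on day 4 were 1.31 and 2.07 CPM after blastula start and 1.45 and 0.666 CPM after gastrula start, against 17.2 and 20.1 CPM in day 4 controls. Its log2 change was -3.56 ± 0.59 on day 2, -1.81 ± 0.44 on day 3, -3.45 ± 0.49 on day 4 after blastula start and -4.14 ± 0.51 after gastrula start. The day 2 value rests on few counts: it was -5.47 without blastula-to-day-2 replicate 1 and -2.89 without blastula-to-day-2 replicate 2, and also -2.89 without day 2 control replicate 1. Its mean BAPN effect was -2.94 ± 0.29, or -3.58 without blastula-to-day-2 replicate 1. The gastrula-to-day-4 value was -4.78 without gastrula-to-day-4 replicate 1.

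Wnt-6 (LOC119721262) fell in each window at low levels. It stood at 0.908 and 1.50 CPM in blastula-to-day-4 embryos and 3.63 and 3.33 CPM in gastrula-to-day-4 embryos, against 18.4 and 11.7 CPM in day 4 controls, with log2 changes of -3.62 ± 0.53 and -2.11 ± 0.48. On day 2 it stood at 0.937 and 0.304 CPM in blastula-to-day-2 embryos against 2.19 and 2.45 CPM in day 2 controls (-1.85 ± 0.58), and on day 3 at 1.65 and 2.01 CPM in gastrula-to-day-3 embryos against 5.11 and 7.05 CPM in day 3 controls (-1.73 ± 0.50). The day 2 value was -2.89 without blastula-to-day-2 replicate 1, and the day 2 call was lost without blastula-to-day-2 replicate 2 (-1.34) and in a fit of only the 4 libraries (-1.87). The day 3 call was lost without gastrula-to-day-3 replicate 1 (-1.59) or day 3 control replicate 2 (-1.49).

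Wnt-6 and Wnt-1 are neighbours on the genome and went opposite ways. In the Pmin_3.0 assembly, Wnt-6 spans NW_024037051.1:10996988-11017828 on the plus strand and Wnt-1 spans NW_024037051.1:11025080-11046041 on the minus strand, 7251 bases apart with 0 annotated genes between them. Their mean BAPN effects were -2.40 ± 0.31 for Wnt-6 and 1.30 ± 0.13 for Wnt-1. Clusters of Wnt-9, Wnt-1, Wnt-6 and Wnt-10 genes are known from many animals. Here Wnt-9a lies 47606 bases beyond Wnt-1 with 6 genes between, Wnt-9b another 11794 bases on, and Wnt-10b on a different scaffold. Wnt-9a had 0 and 1.60 CPM in blastula-to-day-4 embryos, 0.726 and 0 CPM in gastrula-to-day-4 embryos and 0 in both day 4 controls, too few counts for a test.

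Per kilobase of the gene length in the deposited table, the make-up of ligand messages shifted towards Wnt-8b. Its mean level was 397 CPM per kilobase in blastula-to-day-2 embryos and 60.6 in day 2 controls, 184 in gastrula-to-day-3 embryos and 24.7 in day 3 controls, and on day 4 it was 599.8 after blastula start, 267 after gastrula start and 39.4 in controls. Wnt-8b made up 69.6% and 64.9% of the summed ligand level per kilobase in blastula-to-day-2 embryos, against 32.0% and 38.7% in day 2 controls. It made up 48.3% and 45.4% in gastrula-to-day-3 embryos, against 18.7% and 19.9% in day 3 controls. On day 4 it made up 71.1% and 64.7% after blastula start and 63.3% and 55.6% after gastrula start, against 23.8% and 26.9% in day 4 controls.

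The order of the ligands by level per kilobase differed between groups. In each of the 4 groups collected in BAPN, Wnt-8b was first, then came Wnt-16 and then Wnt-11b-2, with no overlap between libraries of neighbours in that order. In day 3 and day 4 controls Wnt-8b was also first, but Wnt-5b came next, ahead of Wnt-11b-2. In recovery Wnt-8b at 21.9 and Wnt-5b at 20.9 CPM per kilobase overlapped, followed by Wnt-7b at 12.4. Wnt-5b and Wnt-11b-2 overlapped on day 4, with 24.8 and 22.8 CPM per kilobase, and not on day 3, with 22.7 and 19.8. In day 2 controls the order was Wnt-8b, Wnt-16 and Wnt-11b-2, as in BAPN, followed by Wnt-7b at 16.5 CPM per kilobase, which overlapped Wnt-2b-A at 14.6. In blastula-to-day-2 embryos Wnt-7b ranked 9 of 11 at 0.805 CPM per kilobase. The summed level of the 11 ligands was 618 and 560.0 CPM per kilobase in blastula-to-day-2 embryos against 149 and 190.2 in day 2 controls, 424 and 360.3 in gastrula-to-day-3 embryos against 126 and 129.9 in day 3 controls, and 990.5 and 765 in blastula-to-day-4 and 503 and 386 in gastrula-to-day-4 embryos against 154 and 156 in day 4 controls.

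**Figure D3:**
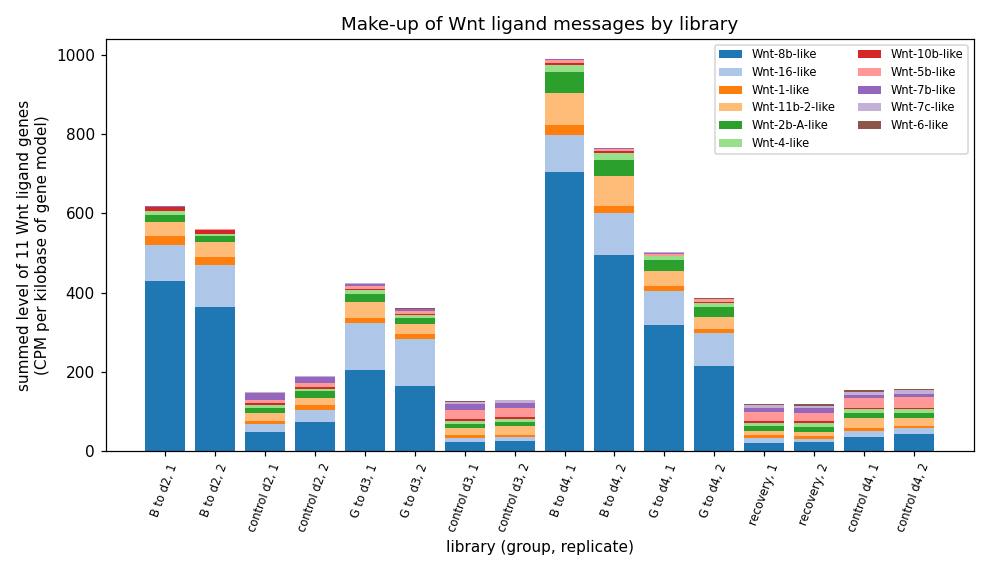
Each bar is 1 library, and its height is the summed level of the 11 ligand genes in CPM per kilobase of the deposited gene length, with 1 colour per gene. The Wnt-8b segment makes up 45.4% to 71.1% of the bar in libraries collected in BAPN, 18.6% and 18.5% in recovery and 18.7% to 38.7% in controls.

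Among the genes of ligand production, wntless rose and porcupine was too low to test well. Wntless homolog A (LOC119737736), the carrier that brings Wnt proteins to the cell surface, stood at 128 and 183 CPM in blastula-to-day-2 embryos, against 78.1 and 56.4 CPM in day 2 controls. Gastrula-to-day-3 embryos had 163 and 147 CPM, against 51.6 and 54.2 CPM in day 3 controls. On day 4 it stood at 229 and 219 CPM after blastula start and 162 and 157 CPM after gastrula start, against 59.2 and 56.8 CPM in day 4 controls. No library collected in BAPN overlapped a control. The log2 change was 1.21 ± 0.16 on day 2, 1.55 ± 0.16 on day 3, 1.95 ± 0.16 on day 4 after blastula start and 1.46 ± 0.16 after gastrula start. The 2 genes named porcupine (LOC119736388 and LOC119721933), the enzyme that attaches the lipid to Wnt proteins, stayed at or below 2.03 CPM in each library and passed the test in none of the 13 comparisons.

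The receptors did not move as a class, and frizzled-5 (LOC119721237) was called in 1 window. Genes of the frizzled-5 and frizzled-8 class mark the anterior neural ectoderm in sea urchin embryos. Frizzled-5 stood at 676 and 846 CPM in blastula-to-day-2 embryos, against 653 and 498 CPM in day 2 controls. The gastrula-to-day-3 libraries held 803 and 869.9 CPM, against 538 and 552 CPM in day 3 controls. The day 4 libraries held 85.3 and 181 CPM after blastula start and 425 and 490.1 CPM after gastrula start, against 444 and 433 CPM in day 4 controls. The blastula-to-day-4 libraries were the lowest of all 16, and the log2 change there was -1.72 ± 0.26 (adjusted p = 7.7e-05), or -2.36 without blastula-to-day-4 replicate 2. It was 0.40 ± 0.25 on day 2 (adjusted p = 0.22), 0.62 ± 0.25 on day 3 (adjusted p = 0.079) and 0.06 ± 0.25 from gastrula to day 4 (adjusted p = 0.87).

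Frizzled-2 and frizzled-9 rose on day 4. Frizzled-2 (LOC119722778) stood at 632 and 551 CPM in blastula-to-day-4 embryos and 363 and 346 CPM in gastrula-to-day-4 embryos, against 258 and 263 CPM in day 4 controls (log2 changes 1.18 ± 0.13 and 0.45 ± 0.13). On day 2 and day 3 its log2 changes were 0.24 ± 0.13 and 0.25 ± 0.13, which did not pass the test. Frizzled-9 (LOC119729975) stood at 230.2 and 260.1 CPM in blastula-to-day-4 embryos and 212 and 243 CPM in gastrula-to-day-4 embryos, against 110.4 and 88.2 CPM in day 4 controls (log2 changes 1.30 ± 0.18 and 1.20 ± 0.18). The log2 change came to -0.20 ± 0.18 on day 2 and 0.64 ± 0.18 on day 3, and the day 3 call was lost without gastrula-to-day-3 replicate 1 (0.53), day 3 control replicate 1 (0.63) or day 3 control replicate 2 (0.64), and with total counts only (0.43).

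Frizzled-4 (LOC119745351) was lower in both windows from blastula and higher from gastrula to day 3. It stood at 200.0 and 180.1 CPM in blastula-to-day-2 embryos, against 269 and 265 CPM in day 2 controls, and at 369.6 and 328 CPM in gastrula-to-day-3 embryos, against 237 and 234 CPM in day 3 controls. Its log2 change was -0.49 ± 0.15 on day 2, 0.57 ± 0.15 on day 3 and -0.40 ± 0.16 from blastula to day 4, each past the threshold, and 0.36 ± 0.15 from gastrula to day 4 (adjusted p = 0.058). The calls depend on single libraries: the day 2 call was lost without day 2 control replicate 1 (-0.48) or blastula-to-day-2 replicate 2 (-0.46), and the day 3 call without gastrula-to-day-3 replicate 1 (0.48), day 3 control replicate 1 (0.57) or day 3 control replicate 2 (0.55), and with total counts only (0.35). The blastula-to-day-4 call was lost without blastula-to-day-4 replicate 1 (-0.07), day 4 control replicate 1 (-0.31) or day 4 control replicate 2 (-0.46), and in a fit of only the 4 libraries (-0.42). A second gene named frizzled-4 (LOC119740236) stayed at or below 2.13 CPM in each library and passed no test (mean effect 1.93 ± 0.83, adjusted p = 0.051).

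The secreted frizzled-related genes went opposite ways. Secreted frizzled-related protein 5 (LOC119725501) stood at 617 and 544 CPM in blastula-to-day-2 embryos, against 239 and 254 CPM in day 2 controls. In gastrula-to-day-3 embryos it stood at 418 and 374 CPM, against 236 and 232 CPM in day 3 controls. Levels on day 4 were 422 and 521 CPM after blastula start and 428 and 384 CPM after gastrula start, against 228 and 219.9 CPM in day 4 controls. Each library collected in BAPN exceeded each control, with log2 changes of 1.24 ± 0.12 on day 2, 0.76 ± 0.12 on day 3, 1.07 ± 0.12 on day 4 after blastula start and 0.86 ± 0.12 after gastrula start.

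Secreted frizzled-related protein 3 (LOC119725500) fell to near 0 by day 4. It stood at 17.9 and 19.9 CPM in blastula-to-day-2 embryos, against 20.6 and 30.8 CPM in day 2 controls. Gastrula-to-day-3 embryos had 7.18 and 8.70 CPM, against 27.6 and 25.4 CPM in day 3 controls. On day 4 it stood at 0.706 and 0.940 CPM after blastula start and 1.27 and 0.0833 CPM after gastrula start, against 16.1 and 17.2 CPM in day 4 controls. The log2 change was -0.44 ± 0.33 on day 2 (adjusted p = 0.3), -1.74 ± 0.34 on day 3, -4.32 ± 0.45 on day 4 after blastula start and -4.65 ± 0.46 after gastrula start. The gastrula-to-day-4 value was -7.48 without gastrula-to-day-4 replicate 1 and -3.69 without gastrula-to-day-4 replicate 2. The genes for secreted frizzled-related proteins 3 and 5 are neighbours too, at NW_024037057.1:5559735-5575432 on the plus strand and NW_024037057.1:5590193-5618963 on the minus strand, 14760 bases apart with 0 annotated genes between them.

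Of the 3 genes named dickkopf-related protein 3, a family whose other members block LRP co-receptors, LOC119745558 had usable counts. It stood at 24.9 and 53.2 CPM in blastula-to-day-2 embryos, against 20.3 and 17.4 CPM in day 2 controls. The gastrula-to-day-3 libraries held 15.4 and 21.5 CPM, against 18.3 and 17.2 CPM in day 3 controls. The day 4 libraries held 0.706 and 2.63 CPM after blastula start and 3.54 and 4.50 CPM after gastrula start, against 20.8 and 23.7 CPM in day 4 controls. It was thus higher on day 2 (log2 change 1.05 ± 0.34), within the spread on day 3 (0.06 ± 0.34) and lower on day 4 (-3.71 ± 0.43 after blastula start and -2.46 ± 0.38 after gastrula start). The day 2 call was lost without blastula-to-day-2 replicate 2 (0.36) or day 2 control replicate 2 (0.94), and with total counts only (0.79). The blastula-to-day-4 value was -3.06 without blastula-to-day-4 replicate 1 and -4.96 without blastula-to-day-4 replicate 2.

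The other dickkopf-related genes had very low counts. LOC119743206 had 3 and 23 counts in blastula-to-day-4 embryos and 0 in both day 4 controls. On day 2 it had 9 and 7 counts in blastula-to-day-2 embryos and 0 in both day 2 controls, a difference that was not called. Its mean BAPN effect passed the test (adjusted p = 0.0042), but not without gastrula-to-day-3 replicate 1, and its blastula-to-day-4 call was lost without blastula-to-day-4 replicate 2, day 4 control replicate 1 or day 4 control replicate 2. LOC119746543 was called in no single window. It had 19 and 1 counts in blastula-to-day-2 embryos and 0 in both day 2 controls, and on day 4 it had 0 and 15 counts in blastula-to-day-4 embryos and 6 and 8 in controls. Its mean effect passed the test (adjusted p = 0.026), but the call was lost without any of 7 single libraries: blastula-to-day-2 replicate 1, gastrula-to-day-3 replicate 2, blastula-to-day-4 replicate 2, day 2 control replicate 1, either day 3 control and day 4 control replicate 1. It was also lost as a mean of 4 windows.

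Inside the cell, beta-catenin and dishevelled were higher in each window. The gene named catenin beta (LOC119741863), the effector of the pathway and also a part of cell adhesion junctions, was abundant. It stood at 2995 and 3211 CPM in blastula-to-day-2 embryos, against 1471 and 1539.9 CPM in day 2 controls. In gastrula-to-day-3 embryos it stood at 2005 and 2179 CPM, against 1036 and 1035 CPM in day 3 controls. Levels on day 4 were 2334 and 2168 CPM after blastula start and 1932 and 1912 CPM after gastrula start, against 802 and 807 CPM in day 4 controls. Each library collected in BAPN exceeded each control library. The log2 change was 1.04 ± 0.11 on day 2, 1.01 ± 0.11 on day 3, 1.48 ± 0.11 on day 4 after blastula start and 1.26 ± 0.11 after gastrula start (mean 1.18 ± 0.06, adjusted p = 3.2e-13). These are RNA levels, and the amount or place of the protein was not measured.

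Dishevelled homolog DVL-3 (LOC119746324), which relays the signal from frizzled receptors, stood at 578 and 612 CPM in blastula-to-day-2 embryos, against 281 and 266 CPM in day 2 controls. On day 4 it stood at 317 and 299 CPM after blastula start and 350.2 and 336 CPM after gastrula start, against 169 and 158 CPM in day 4 controls. Its log2 changes were similar in size across windows, at 1.12 ± 0.11 on day 2, 0.90 ± 0.11 on day 3, 0.92 ± 0.11 on day 4 after blastula start and 1.07 ± 0.11 after gastrula start.

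In the destruction complex, 1 APC gene rose and none of the axin genes passed the test in the mean effect. APC (LOC119746142) stood at 258 and 206 CPM in blastula-to-day-4 embryos and 209 and 208 CPM in gastrula-to-day-4 embryos, against 111 and 106 CPM in day 4 controls. The log2 change came to 0.78 ± 0.15 on day 2, 0.86 ± 0.14 on day 3, 1.10 ± 0.14 on day 4 after blastula start and 0.94 ± 0.14 after gastrula start. The second APC gene (LOC119746143), 9863 bases away on the same strand, stayed at or below 6.01 CPM in each library, with a mean effect of -0.05 ± 0.32. The 3 genes named axin-1, the scaffold of the complex, had mean effects of 0.11 ± 0.14 (LOC119734224), 0.03 ± 0.12 (LOC119734233) and 0.13 ± 0.24 (LOC119734540), with adjusted p-values of 0.54, 0.86 and 0.66. The models LOC119734233 and LOC119734540 overlap by 142 bases on the same strand, so their reads may have been split and their values are uncertain. LOC119734233 was lower from gastrula to day 4 (-0.71 ± 0.22), a call lost without gastrula-to-day-4 replicate 1 (-0.62) or day 4 control replicate 1 (-0.48).

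**Figure D4:**
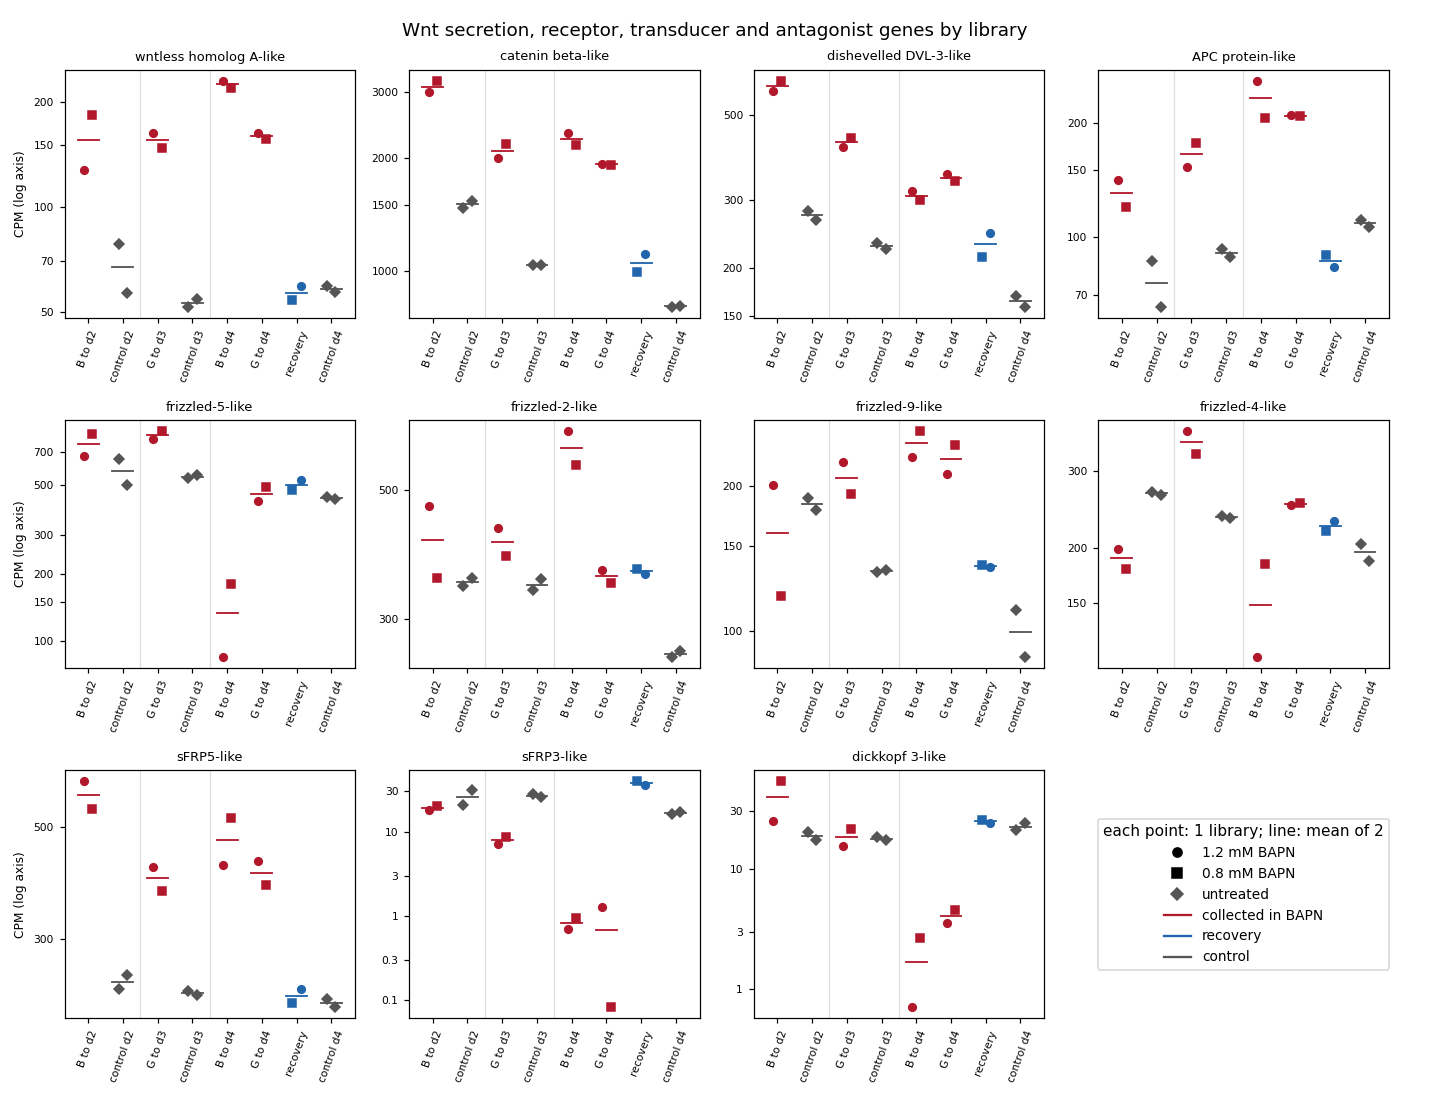
CPM on a log axis of 11 genes of ligand export, receptors, antagonists and signal transduction, by group (B, start at hatched blastula; G, start at mid gastrula; d, day), 1 point per library and a line at the mean of 2. Wntless, catenin beta, DVL-3 and sFRP5 (secreted frizzled-related protein 5) are higher in each window than in the controls of the same day, frizzled-5 is low in the blastula-to-day-4 libraries, and sFRP3 (secreted frizzled-related protein 3) and dickkopf 3 are low in both BAPN groups of day 4.

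Blastula start and gastrula start were compared directly on day 4. Start stage and time in BAPN differ together between these groups and cannot be told apart. Between blastula start and gastrula start, 9 Wnt members were higher after blastula start and 2 lower (median 0.26), where 6.31% of all genes were higher and 7.84% lower. Of the 11 ligands, 6 were higher after blastula start and none lower. Wnt-10b led with a log2 difference of 1.62 ± 0.24, followed by Wnt-11b-2 at 1.24 ± 0.19, Wnt-8b at 1.17 ± 0.22, Wnt-4 at 0.87 ± 0.20, Wnt-2b-A at 0.81 ± 0.19 and Wnt-1 at 0.79 ± 0.22. Frizzled-5 (-1.78 ± 0.26) and frizzled-4 LOC119745351 (-0.76 ± 0.16) were the 2 lower ones (-2.42 for frizzled-5 without blastula-to-day-4 replicate 2), and frizzled-2 was higher (0.74 ± 0.13). Wnt-16, beta-catenin and dishevelled did not pass this test (0.24 ± 0.16, 0.23 ± 0.11 and -0.16 ± 0.11). Without blastula-to-day-4 replicate 1 the number called was 7, and the calls of Wnt-2b-A (0.63) and Wnt-1 (0.62) were among those lost. The Wnt-2b-A call was also lost without gastrula-to-day-4 replicate 2 (0.77), and the Wnt-1 call without gastrula-to-day-4 replicate 1 (0.86) or replicate 2 (0.73). The calls of wntless (0.49 ± 0.16) and axin-1 LOC119734233 (0.86 ± 0.22) were lost without blastula-to-day-4 replicate 1 (0.46 for wntless, 0.79 for axin-1) and without gastrula-to-day-4 replicate 1 (0.52 and 0.78), and that of wntless also without blastula-to-day-4 replicate 2 (0.52) or gastrula-to-day-4 replicate 2 (0.48) and with total counts only (0.39).

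The response after blastula start was also compared between collection days, as the day 4 effect minus the day 2 effect. Here 9 Wnt members had a positive difference and 3 a negative one (median 0.31), where 12.1% of all genes were positive and 15.4% negative. For Wnt-2b-A the difference was 1.66 ± 0.27, for frizzled-9 1.50 ± 0.25 and for Wnt-8b 1.22 ± 0.31. Of these, Wnt-8b was higher on both days, whereas Wnt-2b-A and frizzled-9 were called on day 4 and not on day 2. For Wnt-7b it was 2.44 ± 0.49, because its deficit was larger on day 2. The negative ones were dickkopf-related protein 3 LOC119745558 (-4.76 ± 0.54), secreted frizzled-related protein 3 (-3.88 ± 0.57) and frizzled-5 (-2.12 ± 0.36). Values that moved by more than 1.5-fold when 1 library was left out were those of Wnt-7b (3.31 without blastula-to-day-2 replicate 1), frizzled-5 (-2.77 without blastula-to-day-4 replicate 2) and the dickkopf gene (-4.06 without blastula-to-day-2 replicate 2 or blastula-to-day-4 replicate 1, -6.01 without blastula-to-day-4 replicate 2).

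After removal of BAPN on day 2, most Wnt members on day 4 stood close to control levels. Against blastula-to-day-4 embryos, which kept BAPN, 8 Wnt members were higher in recovery and 14 lower (median -0.42), where 25.3% of all genes were higher and 23.3% lower. Wnt-8b stood at 39.7 and 39.6 CPM in recovery, against 1277 and 897 CPM with BAPN kept, a log2 change of -4.78 ± 0.26. Wnt-16 stood at 16.5 and 21.1 CPM in recovery, against 160.4 and 179 CPM with BAPN kept (-3.17 ± 0.17). Beta-catenin stood at 1108 and 994 CPM in recovery, against 2334 and 2168 CPM with BAPN kept (-1.10 ± 0.11). In each of these genes the recovery libraries lay below the libraries that kept BAPN without overlap.

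The genes lower in blastula-to-day-4 embryos than in day 4 controls were higher in recovery than in blastula-to-day-4 embryos. For these genes and those above, both comparisons use the same blastula-to-day-4 libraries, so they are not independent. Wnt-5b stood at 79.8 and 88.5 CPM in recovery, against 34.7 and 18.2 CPM with BAPN kept (1.67 ± 0.24). Wnt-7b stood at 37.1 and 30.0 CPM in recovery, against 6.86 and 6.58 CPM with BAPN kept (2.32 ± 0.33), and Wnt-7c and Wnt-6 had log2 changes of 3.12 ± 0.49 and 2.87 ± 0.53. Secreted frizzled-related protein 3 stood at 35.4 and 39.3 CPM in recovery, against 0.706 and 0.940 CPM with BAPN kept (5.48 ± 0.45). Frizzled-5 stood at 528 and 472 CPM in recovery, against 85.3 and 181 CPM with BAPN kept (1.91 ± 0.26), and dickkopf-related protein 3 LOC119745558 at 23.9 and 25.5 CPM in recovery, against 0.706 and 2.63 CPM with BAPN kept (3.86 ± 0.42). Without blastula-to-day-4 replicate 2 the frizzled-5 value was 2.55. The dickkopf value was 3.22 without blastula-to-day-4 replicate 1 and 5.11 without blastula-to-day-4 replicate 2.

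Against day 4 controls, 4 Wnt members were higher in recovery and 2 lower (median 0.13), where 7.27% of all genes were higher and 8.65% lower. Wnt-11b-2 was lower, at 19.6 and 18.0 CPM in recovery against 42.8 and 35.1 CPM in day 4 controls (-1.05 ± 0.20, adjusted p = 8.1e-04). Wnt-8b was lower as well (-0.85 ± 0.23), and secreted frizzled-related protein 3 (1.16 ± 0.33), dishevelled (0.49 ± 0.11), frizzled-2 (0.48 ± 0.13) and beta-catenin (0.39 ± 0.11) were higher. Of the 6 calls, that of Wnt-11b-2 was kept whichever library was left out, and each of the other 5 was lost without at least 1. Without 1 library between 1 and 3 calls were left: 2 without day 4 control replicate 1, 1 without day 4 control replicate 2, 3 without recovery replicate 1 and 2 without recovery replicate 2. Over all alternatives the log2 changes ranged from 0.32 to 0.49 for beta-catenin, 0.40 to 0.60 for dishevelled and -0.93 to -0.74 for Wnt-8b.

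Against day 3 controls, which are a day younger, no Wnt member was called in recovery, where 0.291% of all genes were higher and 0.360% lower. With edgeR, 1 member had an unadjusted p under 0.05. This was Wnt-11b-2, at 19.6 and 18.0 CPM in recovery against 30.1 and 37.6 CPM in day 3 controls (-0.85 ± 0.20, adjusted p = 0.058), and it was the 1 member called with DESeq2, without the filter on low counts or with total counts only. Beta-catenin stood at 1108 and 994 CPM in recovery against 1036 and 1035 CPM in day 3 controls (0.02 ± 0.11), and dishevelled at 246 and 214 CPM in recovery against 231 and 224 CPM (0.01 ± 0.11). Wnt-8b and Wnt-5b had log2 changes of -0.18 ± 0.23 and -0.12 ± 0.23. A test that is not passed with 2 libraries a group does not show equal levels. The recovery libraries carried 1.34% and 2.02% of counts on ribosomal RNA genes and day 4 control replicate 2 carried 3.20%, whereas the other 13 libraries carried 0.323% to 0.977%; the part of this in the recovery values was not tested.

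**Figure D5:**
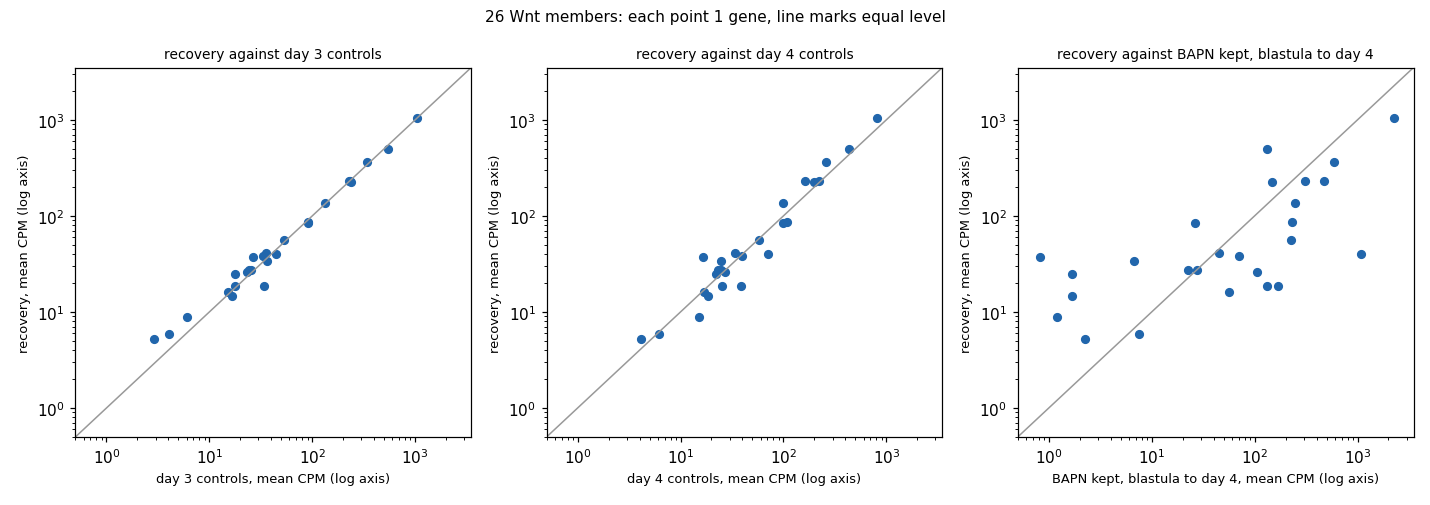
Mean CPM of 26 Wnt members in recovery (vertical, log axis) against day 3 controls, day 4 controls and blastula-to-day-4 embryos that kept BAPN (horizontal, log axis), 1 point per gene and a line at equal level. Most points lie close to the line against both controls, and the points scatter widely against embryos that kept BAPN.

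In untreated embryos, 6 Wnt members changed between day 2 and day 3 and 3 between day 3 and day 4. Between day 3 and day 2 controls, 2 Wnt members were higher on day 3 and 4 lower, where 9.86% of all genes were higher and 6.55% lower. Wnt-5b (1.43 ± 0.24) and Wnt-7c (1.75 ± 0.44) were higher on day 3. Wnt-16 (-1.29 ± 0.17), Wnt-8b (-1.29 ± 0.23), Wnt-1 (-0.80 ± 0.22) and beta-catenin (-0.54 ± 0.11) were lower on day 3. The Wnt-1 call was lost without day 2 control replicate 2 (-0.38), day 3 control replicate 1 (-0.87) or day 3 control replicate 2 (-0.74). The Wnt-7c call was lost without the same libraries (1.30, 1.74 and 1.77), and its value was 2.40 without day 2 control replicate 1.

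Between day 4 and day 3 controls no Wnt member was higher on day 4 and 3 were lower, where 7.95% of all genes were higher and 5.79% lower. The 3 were dishevelled (-0.48 ± 0.11), frizzled-2 (-0.40 ± 0.13) and beta-catenin (-0.36 ± 0.11). Their calls rest on small differences: without 1 library 0 or 1 call was left, 0 without day 3 control replicate 1 or day 4 control replicate 2, and 1 without day 3 control replicate 2 or day 4 control replicate 1. The frizzled-2 call was also lost with DESeq2 scaling in edgeR (-0.36). At an unadjusted p under 0.05, 9 members differed. The share of all genes at that threshold was not counted, so no result about the members is read from this.

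The dose made no called difference. Over the 10 treated libraries, 5 at each dose, no Wnt member was called between 1.2 mM and 0.8 mM BAPN with the treatment group in the model, where 0.0228% of all genes were higher at 1.2 mM and 0% lower. At an unadjusted p under 0.05, 5 Wnt members differed. The share of all genes at that threshold was not counted, so no response to dose is read from this. Wnt-8b had a log2 difference of 0.34 ± 0.09 (adjusted p = 0.28), and in each of the 4 groups collected in BAPN its 1.2 mM library stood above its 0.8 mM library. It was called with DESeq2 and without the filter on low counts.

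Other genes of the pathway, taken by a list of product names, went both ways as well. Of 40 tested, 16 were higher and 13 lower in the mean BAPN effect (median 0.05), where 28.1% of all genes were higher and 30.1% lower. RYK (LOC119723441), an atypical Wnt receptor, was higher by 2.94 ± 0.11, with 95.4 and 88.5 CPM in blastula-to-day-4 embryos against 19.6 and 17.5 CPM in day 4 controls. Naked cuticle 2 (LOC119739360), which binds dishevelled and is a common Wnt target, was higher by 2.63 ± 0.09, with 351 and 301 CPM in blastula-to-day-4 embryos against 76.6 and 59.2 CPM in day 4 controls. Genes named LRP4, low-density lipoprotein receptor-related protein 4, included LOC119737345 at 1.99 ± 0.09 and LOC119743087 at 1.94 ± 0.17. Others of the largest changes, LOC119722385 and LOC119742845 (LRP4), LOC119740904 (LGR4) and LOC119728558 (tankyrase-1), had a group with no count, and no fold is given for them. The genes given with values up to here were all higher and do not stand for the 13 lower ones. The next 7 genes were added for their roles after their values were seen. Both genes named transcription factor 7-like 2, the nuclear partner of beta-catenin, were higher (1.70 ± 0.09 for LOC119732565 and 1.82 ± 0.13 for LOC119732526). Of the genes named LRP6, the co-receptor, LOC119738884 did not pass the test (0.11 ± 0.08) and LOC119743023 was lower (-0.79 ± 0.16). The kinases named GSK3 beta were higher by 0.31 ± 0.09 and 0.34 ± 0.12, and the sclerostin domain-containing gene (LOC119729593) was lower (-1.03 ± 0.09).

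The 27 genes that share letters with axin are not named for the pathway, and whether any of them acts in it was not examined. Most are proteins of vesicle fusion, the nucleus or mitochondria, and 1 name is that of draxin, a secreted axon guidance protein. Of the 22 tested, 9 were higher and 5 lower in the mean BAPN effect, with log2 changes of -1.47 to 1.69 and a median of 0.27, where 28.1% of all genes were higher and 30.1% lower. Draxin (LOC119731775) was among the 5 lower ones (-0.81 ± 0.07). It was called lower on day 2 (-0.39), on day 3 (-0.83), and on day 4 after blastula start (-1.23) and gastrula start (-1.35).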

How the data were processed

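A single table from the authors holds unnormalized (raw) read counts of 27818 genes in 16 libraries, made from stranded paired-end polyA sequencing per the labels' protocols and the design text. Aligner, counter and build: not given in the sources used here. Gene starts and ends matched the Pmin_3.0 table for all 27818 genes, and strands and coordinates come from it. No sequences are shown.

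Genes were filtered with filterByExpr in edgeR 4.0.16 (R 4.3.3; minimum count 10, minimum total 15), which kept 17519. Libraries were scaled by TMM. The quasi-likelihood test was fitted on all 16 libraries with 1 mean per group (8 residual degrees of freedom). The dose model used the 10 treated libraries. P-values were adjusted by Benjamini-Hochberg over all genes tested, and a gene was called at an adjusted p under 0.05. CPM are counts divided by the TMM-scaled library size, as edgeR gives them. Values after ± are standard errors of the log2 change from this fit. The fit was also run on simulated counts in which few genes were changed. Far more genes were called here, so that run does not vouch for these calls. Named were up to 8 called members with the largest log2 change per comparison and, beyond that rule, every other member by name or count. The members and lists were chosen with earlier results of these data known. Alternatives were total-count and DESeq2 scaling, DESeq2 1.42.0, other filters, fits on fewer libraries, a replicate block and leaving out each library.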

Additional observations from a re-analysis of the deposited data

Results flagged for a closer look

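For 12 Wnt members, the effect of BAPN after blastula start differed between day 4 and day 2 in edgeR's quasi-likelihood test of the difference itself, adjusted over all genes, with 9 differences positive and 3 negative. Over all genes tested, 12.1% were positive and 15.4% negative. The difference, day 4 effect minus day 2 effect on the log2 scale, was 2.44 for Wnt-7b, whose level was lower on both days and furthest below its control on day 2. It was 1.66 for Wnt-2b-A, 1.50 for frizzled-9, 1.22 for Wnt-8b, 0.94 for frizzled-2, 0.86 for Wnt-11b-2, 0.81 for Wnt-16, 0.74 for wntless and 0.44 for catenin beta. It was -2.12 for frizzled-5, -3.88 for secreted frizzled-related protein 3 and -4.76 for dickkopf-related protein 3 (LOC119745558).

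The calls of 4 of these 12 rest on single libraries. That of catenin beta was lost without blastula-to-day-2 replicate 1 (0.39), day 2 control replicate 2 (0.41), day 4 control replicate 1 (0.50) or day 4 control replicate 2 (0.45), and with the replicate block (0.50). That of wntless was lost without blastula-to-day-2 replicate 1 (0.51), day 2 control replicate 1 (0.52) or day 4 control replicate 2 (0.71). That of Wnt-16 was lost without blastula-to-day-2 replicate 1 (0.70), day 2 control replicate 2 (0.52) or day 4 control replicate 1 (0.75). That of Wnt-11b-2 was lost without blastula-to-day-2 replicate 1 (0.82), day 2 control replicate 1 (0.83) or day 4 control replicate 2 (0.72). Age and time in BAPN differ together between the 2 days and cannot be told apart.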

How the results depend on the processing

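Over 13 comparisons edgeR made 156 calls of Wnt members; 119 were kept in every alternative, 37 were lost in at least 1, and none changed sign. Counts moved by more than 1.5-fold in these cases. For recovery against day 4 controls the count was 6, and it was 10 in a fit of only the 4 libraries and 1 to 3 without 1 library. For recovery against day 3 controls it was 0, and 1 with total counts only, without the low-count filter or with DESeq2. For blastula start against gastrula start it was 11, and 7 to 12 without 1 library. For day 4 against day 3 controls it was 3, and 6 without the filter or with DESeq2 and 0 to 1 without 1 library. For the dose it was 0, and 1 without the filter or with DESeq2. The cause was not tested. Without 1 library the counts were 19 to 22 for the mean BAPN effect, 13 to 16 for blastula to day 2, 12 to 17 for gastrula to day 3, 20 to 22 for blastula to day 4, 18 to 20 for gastrula to day 4, 20 to 22 for recovery against blastula to day 4, 8 to 13 for the day 4 effect minus the day 2 effect and 4 to 8 for day 3 against day 2 controls. Treated libraries and the controls named for them did not deviate together (correlations 0.01, -0.01 and 0.02), so the samples were not paired. With the replicate block the counts were 20 against 21 for the mean effect, 14 against 16 for blastula to day 2, 17 in both fits for gastrula to day 3, 21 against 22 for blastula to day 4 and 11 against 12 for the day 4 effect minus the day 2 effect. Calls lost with the block were those of Wnt-10b (0.52) and dickkopf-related protein 3 LOC119745558 (0.87) on day 2, of LOC119743206 from blastula to day 4, of LOC119746543 in the mean effect and of catenin beta in the day 4 effect minus the day 2 effect (0.50). Genes at a few CPM (the porcupine genes and the low dickkopf, frizzled-4 and APC genes) are limited by depth.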
